A study of Mus musculus with 8 samples.

Results

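RNA of 2 libraries labelled as ependymoma of mice given MRX-2843 was compared with RNA of all 4 naive brain libraries of the same study, 2 from mice given the drug and 2 from mice given vehicle. The genes described are those whose CPM (counts relative to library size, scaled between libraries) in both tumor-labelled libraries lay above, or in both lay below, the level of every naive library. Of 55414 genes in the count table, 22769 had enough counts to be tested, and 7891 of these (34.7%) lay outside the naive range. The 6 libraries are part of a series of 8, whose other libraries are vehicle tumor.

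The tumor studied was a supratentorial ependymoma driven by a fusion of Zfta with Rela. The labels give this fusion as genotype to all 6 libraries, naive brain included. Animals with a tumor on MRI were randomised to vehicle (0 mg/kg) or to MRX-2843 at 50 mg/kg, given by mouth once daily for 5 days, and brains were taken 1 h after the last dose. The 3 groups used here were tumor after MRX-2843, naive brain after MRX-2843 and naive brain after vehicle, with 2 libraries in each. The labels do not say how the fusion was introduced, what naive brain tissue was, or whether the mice it came from bore a tumor, and they call the libraries of a group duplicates. Nothing says that duplicates came from separate animals, so p-values measure only the spread between these libraries, and that between duplicates may be technical. In the test against all naive libraries together, differences between the 2 naive groups also count as spread. Genes on which the naive groups differ are thus less readily called. A number in the column names, 909 in every MRX-2843 library and 914 or 915 in the vehicle naive libraries, is not explained. Treatment of the naive brains, this number and a difference in sex-linked RNA, described below, cannot be told apart.

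ZFTA-RELA ependymoma is a tumor of the cerebral hemispheres in which the fusion protein brings an NF-kB transactivation domain to ZFTA's chromatin targets. MRX-2843 inhibits MERTK, a receptor through which macrophages and microglia take up dying cells, and FLT3, a receptor of early blood and dendritic cells. Brain tissue mixes neurons with oligodendrocytes, which wrap axons in myelin, with ependymal cells, which line the ventricles with beating cilia, and with microglia, the resident macrophages. In bulk RNA of this kind, fewer cells of a type and less RNA per cell cannot be told apart.

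Totals ran from 51150569 to 112938462 counts in the 6 libraries, and 78 to 81.8% of the counts from 1 to 20 were even numbers, so that counts tended to come in pairs. Several genes high in vehicle tumor, named here after their values were seen, were at or near 0 in the libraries labelled MRX-2843 tumor, while Col6a1 (below) was not. Igf2, an imprinted growth factor gene, was at 0.211 and 0.472 CPM in these against 191 and 196 CPM in vehicle tumor. H19 was at 1.78 and 0.776 CPM, above the 0 to 0.506 CPM of the naive libraries, and at 1300 CPM in both vehicle tumor libraries. Fgf4, Hmx1 and Mc2r had 0 counts in both tumor-labelled libraries, which allows up to 0.0527 and 0.0506 CPM (3 counts, counting error only), and were at 36 to 64.3 CPM in vehicle tumor. This limit takes each count as independent and would be higher for counts that come in pairs. Col1a1, encoding a fibrillar collagen chain, was at 6.8 and 6.85 CPM against 5510 and 5530 CPM in vehicle tumor. C4b (below) was at 115 and 116 CPM, against 2906 and 2955 in vehicle tumor and 18.2 to 29.1 in the naive libraries. Mitochondrially encoded genes took 17.3 and 16.4% of counts, within the 14.7 to 18.5% of the naive libraries, and 3.26 and 3.37% in vehicle tumor. Since these genes were absent or far lower where the label says tumor, the libraries are called tumor-labelled from here on.

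The edgeR quasi-likelihood test with Benjamini-Hochberg adjustment called 466 genes higher (2.05% of those tested) and 538 lower (2.36%) in the tumor-labelled libraries at an adjusted p under 0.05. By range, 4002 genes (17.6%) lay above every naive library and 3889 (17.1%) below. All 1004 called genes (4.41%) lay outside the range, but the range and the test read the same 6 libraries and do not support each other. Changes were mostly small: 143 of the higher and 77 of the lower calls reached 1 log2 unit, and a gap of 1 log2 unit or more between the nearest tumor-labelled and nearest naive library was found for 74 genes above and 25 below. Protein-coding genes made up 92.3% of the higher calls, 95.4% of the lower calls and 71.4% of the genes tested. The median log2 fold change over all genes tested was -0.006.

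The naive libraries were not alike. For 13541 genes (59.5%) the MRX-2843 naive and vehicle naive pairs did not overlap each other, and Pearson's r between single libraries over 12845 genes was 0.9489 to 0.9502 across these pairs, 0.9931 to 0.9951 between duplicates, 0.9531 to 0.9554 for the tumor-labelled with the MRX-2843 naive libraries and 0.9624 to 0.964 with the vehicle naive libraries (genes are not independent replicates). For 1231 genes (5.41%) the tumor-labelled libraries lay above the MRX-2843 pair and below the vehicle pair, and for 969 (4.26%) the reverse. With the 3 groups fitted separately, 3142 genes (13.8%) were higher and 3251 (14.3%) lower than in MRX-2843 naive brain, the pair with the same number in its column names. Against vehicle naive brain 2968 (13%) were higher and 3528 (15.5%) lower. Both contrasts share the tumor-labelled libraries.

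**Figure D1:**
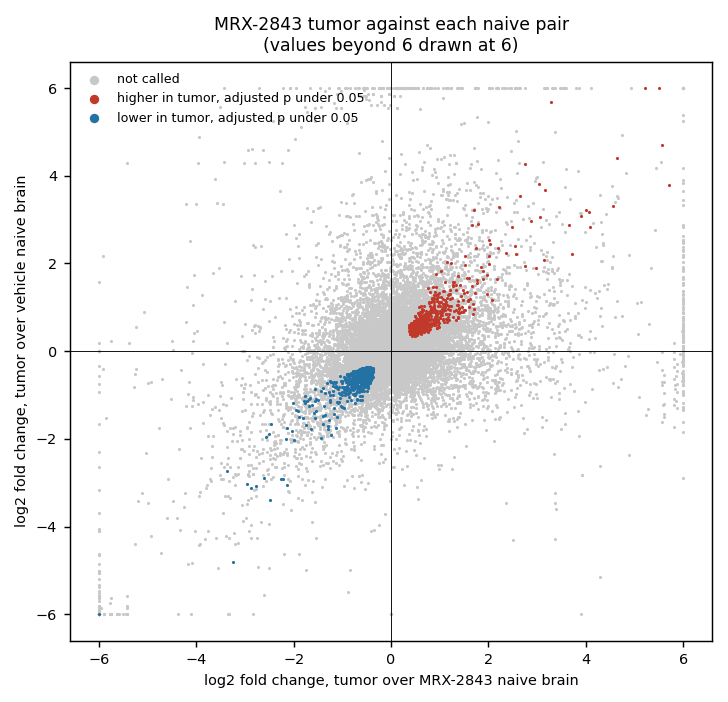
Each point is 1 of the 22769 genes tested, with its log2 fold change in the tumor-labelled libraries over MRX-2843 naive brain (x axis) and over vehicle naive brain (y axis), both from the fit of 3 groups; the axes share the tumor-labelled libraries. Genes called against all 4 naive libraries (466 higher in red, 538 lower in blue) lie at the upper right and lower left, and uncalled genes (grey) on all sides of the origin.

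The calls against all 4 naive libraries rested on both tumor-labelled libraries. Without tumor-labelled library 1 the edgeR test called 0 genes (2659 at an unadjusted p under 0.05), and without library 2 it also called 0 (3052 unadjusted). When the naive pairs were modelled as 2 groups, 5141 and 5724 genes were called without library 1 or 2, with 1000 and 999 of the 1004 calls among them. Leaving out 1 naive library cut the calls to 480 (without MRX-2843 naive library 1), 409 (MRX-2843 naive 2), 435 (vehicle naive 1) or 416 (vehicle naive 2). Of the 79 called genes that the naming rule picked, 46 kept their call without each naive library in turn, and 33 did not, which is said beside each of those described. With a term for replicate number in the fit (a replicate block), 58 of the 79 lost their call, which is not said beside each. None of the 79 kept its edgeR call without tumor-labelled library 1 or without library 2 (adjusted p from 0.15 to 0.37), and all 79 kept it without either when the naive pairs were 2 groups. DESeq2 called all 79, on the same 6 libraries from whose calls they were picked. In the fits with 1 tumor-labelled library left, the spread comes from the naive libraries alone. Keeping a call in any of these fits is therefore no independent support.

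At the edge of the range, Mllt1 (62.19 and 65.22 CPM against a highest naive library of 62.18) and Zfp598 (85.68 and 87.91 against a value that rounds to the same 85.68) counted as above. Cxadr (42.12 and 39.45 against 39.46) and Git2 (43.17 and 46.74 against 43.18) counted as within, which here means that the 2 tumor-labelled libraries were not both outside on the same side. Genes this close to a naive library make up part of the 7891, so what follows is led by the called genes with the widest gap and by named cell type and pathway lists.

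Among called genes above the range with a mean log2 CPM of at least 2, the widest gap was that of Thbs4 (GRCm38 chromosome 13, 92751590 to 92794818), which encodes thrombospondin-4, a matrix protein that astrocytes of the subventricular zone secrete. It was at 33.1 and 30.9 CPM in the tumor-labelled libraries, while the MRX-2843 naive libraries held 1.19 and 0.356 and the vehicle naive libraries 1.15 and 1.33, a gap of 4.11 log2 units (log2 fold change 5.02 ± 0.43 SE, adjusted p = 0.0083). In vehicle tumor its mean was 4.09 CPM, so the tumor-labelled libraries were the highest of the series. C4b (chromosome 17, 34728380 to 34743882), encoding complement component C4, was at 115 and 116 CPM against 28.4 and 29.1 in MRX-2843 naive and 21.5 and 18.2 in vehicle naive brain (2.25 ± 0.18, adjusted p = 0.0083); reads of C4b and its near-identical copy C4a may have been split by the authors' counting. Hipk2, a nuclear kinase gene, was at 32.7 and 30.5 CPM against 6.57 to 11.3 in the naive libraries (1.82 ± 0.22, adjusted p = 0.012). Adamts4, a protease that cleaves aggrecan and versican, was at 37.6 and 34.3 CPM with all 4 naive libraries between 12.6 and 14.5 (1.44 ± 0.11, adjusted p = 0.0083), though reads of the other strand may be among its counts.

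The other 8 of the 12 widest gaps above the range ran from 1.11 to 1.49 log2 units. They held H2-Ab1, of MHC class II, and Mal, of compact myelin, both described with their lists. The transcription factor gene Zbtb16, which glucocorticoids induce, was at 28.3 and 26.9 CPM against 6.79 to 10.9 (1.57 ± 0.19, adjusted p = 0.011). Kcna1, a potassium channel subunit of juxtaparanodes along myelinated axons, was at 23.1 and 23.6 CPM against 9.11 to 10.4 (1.23 ± 0.11, adjusted p = 0.0083). Chromatin and division-linked genes were among them too: the DNA-bending Hmgb2 was at 19.3 and 20.1 CPM against 5.35 to 8.12, and the MYC target Cdca7 at 10.3 and 14 against 2.61 to 4.08. Cd24a, a surface protein of neuroblasts and ependymal cells, was at 15.1 and 11.2 CPM against 3.53 to 4.71 (1.64 ± 0.18, adjusted p = 0.0096). Zbed6 (12.4 CPM in both) shares exons with Zc3h11a, its host gene, and its counts are uncertain for that reason.

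**Figure D2:**
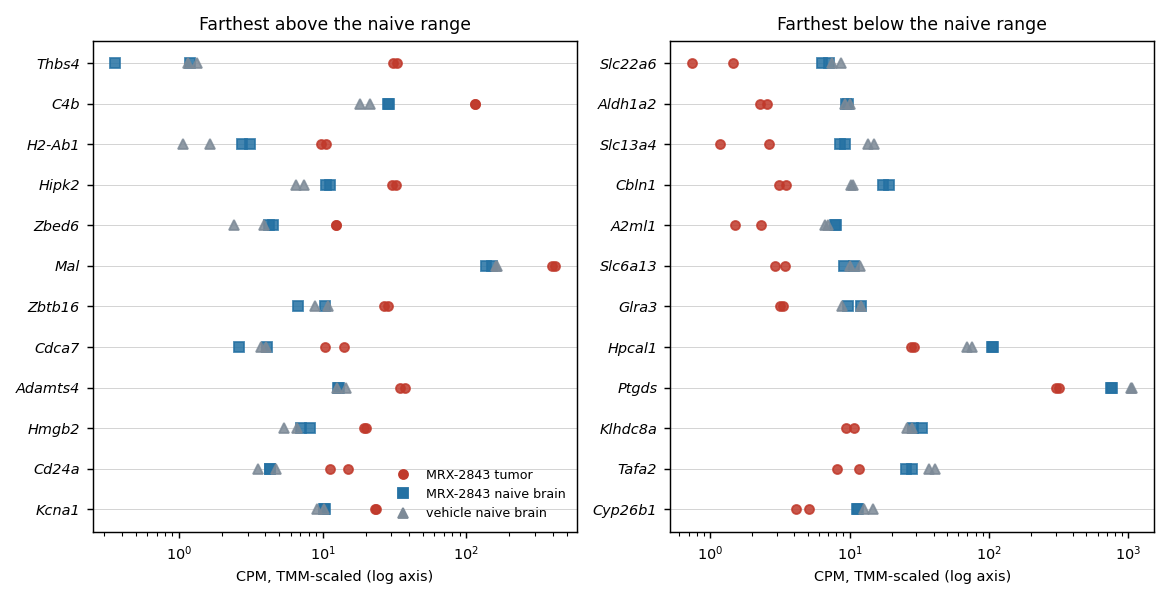
CPM in each of the 6 libraries (log axis) of the 12 genes with the widest gap above and the 12 with the widest gap below the naive range; circles are tumor-labelled, squares MRX-2843 naive and triangles vehicle naive libraries. In each row both circles lie to 1 side of all 4 other points, from 33.1 and 30.9 CPM against at most 1.33 for Thbs4 to 4.15 and 5.13 against at least 11.2 for Cyp26b1.

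Several called genes with the widest gaps below the range, chosen by the same rule, are known from the meninges. Slc22a6 (chromosome 19, 8618039 to 8628299), an organic anion transporter gene, was at 0.738 and 1.45 CPM against 6.34 to 8.72 in the naive libraries (-2.75 ± 0.32, adjusted p = 0.011). Aldh1a2, which makes retinoic acid in meningeal fibroblasts, was at 2.53 and 2.26 CPM against 9.31 to 10.1 (-2.01 ± 0.16, adjusted p = 0.0083), and Slc13a4, a sulfate transporter gene, at 2.64 and 1.18 against 8.49 to 15. Slc6a13, a GABA and taurine transporter gene of the same tissue, was at 3.43 and 2.92 CPM against 9.1 to 11.9 (-1.72 ± 0.18, adjusted p = 0.009). Ptgds, prostaglandin D synthase of meninges and oligodendrocytes, was at 301 and 319 CPM, with 748 and 766 in MRX-2843 naive and 1047 and 1067 in vehicle naive brain (-1.55 ± 0.19, adjusted p = 0.011). These 5 genes were grouped after their values were seen, and no meningeal list was counted.

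The other 7 of the 12 have varied roles. Cbln1, a secreted synapse organiser, was at 3.11 and 3.47 CPM against 17.4 and 19 in MRX-2843 naive and 10.5 and 10.3 in vehicle naive brain (-2.12 ± 0.32, adjusted p = 0.018). Hpcal1, a neuronal calcium sensor gene, was at 29.1 and 27.3 CPM, below both naive pairs at 105 and 107 and at 75.4 and 69.2 (-1.66 ± 0.21, adjusted p = 0.012). Glra3, a glycine receptor subunit gene, was at 3.34 and 3.14 CPM against 8.85 to 12 (-1.72 ± 0.20, adjusted p = 0.0096). Cyp26b1, which breaks down retinoic acid, was at 4.15 and 5.13 CPM against 11.2 to 14.7 (-1.43 ± 0.18, adjusted p = 0.012). A2ml1, Klhdc8a and Tafa2 complete the group at log2 fold changes of -1.94, -1.50 and -1.74. By the rule that picked them, the tumor-labelled values lay below both naive pairs for each.

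Myelin genes rose. All 12 oligodendrocyte genes lay above the naive range and all 12 were called higher, beside 17.6% and 2.05% of all genes tested, with a median log2 fold change of 1.01 (1.05 against MRX-2843 and 0.91 against vehicle naive brain). Their summed level was 14700 to 15200 CPM in the tumor-labelled libraries, 7780 to 7830 in the MRX-2843 naive pair, with 7700 to 7770 in the vehicle naive pair. In vehicle tumor the sum was 547 and 568 CPM. The naive pairs thus lay close together for this list while the tumor-labelled libraries stood above both. Mag, the myelin-associated glycoprotein of the inner wrap, was at 390 and 394 CPM against 189 to 209 (0.95 ± 0.08, adjusted p = 0.0083). Mal was at 415 and 398 CPM against 137 to 164 (1.41 ± 0.10, adjusted p = 0.0083), and Cldn11, the tight junction claudin of myelin, at 320 and 346 against 124 to 151 (1.26 ± 0.11, adjusted p = 0.0083). Without 1 naive library at a time, 9 or 10 of the 12 stayed called. The largest adjusted p-values were those of Opalin (0.042) and Aspa (0.043), named here after their values were seen.

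Since the list moved together, the 250 bases before the start sites were searched on both strands for the core motif of MYRF, the transcription factor that switches on myelin genes (CTGGCAC or CTGGTAC). It was found before 3 of the 10 list members with a promoter in the table (Mog, Mag and Cnp) and before 6.8% of 27025 genes. A SOX motif (ACAAAG or ACAATG) stood before 5 of the 10 and 28.2% of all genes. Motifs were picked with the results known and several were tried, so each match is a description of these letters only. The promoters of Mag (3 start windows in the table, 2 with the motif) and of Cnp, an enzyme of non-compact myelin, are shown as RefSeq gives them on GRCm38.p6, 5′ to 3′ on the gene's strand, with the MYRF motif in capitals; Mag lies on the minus strand at chr7:30914864-30915113 and Cnp on the plus strand at chr11:100574689-100574938.
Mag: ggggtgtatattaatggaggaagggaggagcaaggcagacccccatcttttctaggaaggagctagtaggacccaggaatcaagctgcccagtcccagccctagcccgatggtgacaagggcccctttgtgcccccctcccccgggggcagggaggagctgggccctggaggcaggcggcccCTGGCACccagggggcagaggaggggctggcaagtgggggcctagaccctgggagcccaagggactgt
Cnp: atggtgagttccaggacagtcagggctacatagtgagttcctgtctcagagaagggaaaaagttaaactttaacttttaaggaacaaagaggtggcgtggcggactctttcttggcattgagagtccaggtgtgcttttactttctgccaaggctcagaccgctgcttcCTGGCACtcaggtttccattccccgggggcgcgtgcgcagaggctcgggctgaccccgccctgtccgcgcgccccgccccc

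Genes of earlier stages of the lineage rose in part. Of 9 genes of oligodendrocyte precursors, 5 were called higher and 0 lower, beside 2.05% and 2.36% of all genes tested, with a median of 0.64. Sox10, a factor of the whole lineage, was at 75.4 and 84.2 CPM against 40.6 to 46.9 (0.89 ± 0.10, adjusted p = 0.0091). Gpr17, a receptor of cells about to myelinate, was at 49.4 and 48 CPM against 30 to 33.1 (0.65 ± 0.09, adjusted p = 0.014), in a place where Lims2 overlaps on the other strand. Olig1 was at 158 and 175 CPM against 96.7 to 113 (0.65 ± 0.10, adjusted p = 0.019), a call lost without vehicle naive library 2 (adjusted p = 0.05). Pdgfra and Cspg4, the defining genes of precursors that still divide, were not called (0.20 and 0.12, adjusted p = 0.46 and 0.71). The 2 were named after their values were seen.

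Part of the list of dividing cells rose from a low base. Of 20 mitosis genes 7 were called higher and 0 lower (2.05% and 2.36% of all genes tested), 14 lay above the range and 0 below (17.6% and 17.1% of all genes), and the median was 1.37 (1.71 and 1.40 against MRX-2843 and vehicle naive brain). Their sum was 61.1 to 68.3 CPM in the tumor-labelled libraries, 26.8 to 28.5 in MRX-2843 naive, and 25.3 to 26 in vehicle naive brain. In vehicle tumor it was 479 to 485 CPM. Top2a, the topoisomerase that untangles sister chromatids, was at 9.51 and 6.95 CPM, at 0.164 and 0.15 in MRX-2843 naive and at 0.287 and 0.894 in vehicle naive brain (4.46 ± 0.66, adjusted p = 0.018). Mki67, which coats mitotic chromosomes, was at 7.74 and 5.83 CPM against 1.02 to 1.74 (2.38 ± 0.27, adjusted p = 0.0096). Cenpf, of the kinetochore, was at 4.15 and 2.66 CPM against 0.268 to 0.759 (3.02 ± 0.46, adjusted p = 0.019), and was lost without MRX-2843 naive library 2 (adjusted p = 0.051). Both tumor-labelled libraries exceeded every naive library for these 3 genes, which the rule that named them required. The other 6 did not have both tumor-labelled libraries outside the naive range, among them Plk1 (4.781 and 5.143 CPM against 3.173 to 5.454) and Aurka (2.109 and 1.585 against 1.392 to 2.052), kinases of the spindle named after their values were seen. The called members numbered 2 without MRX-2843 naive library 2, 4 without MRX-2843 naive library 1 or vehicle naive library 1, and 6 without vehicle naive library 2.

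Of 16 S phase genes 2 were called higher and 0 lower, with a median of 0.35; 2 calls of 16 stand beside 2.05% of all genes. Rrm2, which makes deoxynucleotides, was at 6.33 and 6.47 CPM against 0.369 to 1.78 (2.35 ± 0.50, adjusted p = 0.045). Mcm5, of the replicative helicase, was at 10.1 and 9.8 CPM against 4.02 to 6.33 (0.97 ± 0.20, adjusted p = 0.041). Each lost its call without MRX-2843 naive library 2 and without vehicle naive library 2, Rrm2 also without vehicle naive library 1 (adjusted p = 0.066 to 0.093) and Mcm5 also without MRX-2843 naive library 1 (adjusted p = 0.069 to 0.087).

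Promoters of mitotic genes carry 2 known elements, a CCAAT box bound by NF-Y and a CHR element (TTTGAA) bound by the DREAM complex. In the 250 bases before the start, on either strand, CCAAT stood before 15 of 17 mitosis genes with a promoter in the table and before 37.5% of 27025 genes. TTTGAA stood before 8 of the 17 and 18.3% of all genes. The promoters of Top2a (chr11:99024190-99024439, minus strand) and Mki67 (chr7:135716380-135716629, minus strand), the list members with the largest fold change and the smallest adjusted p, follow as RefSeq gives them on GRCm38.p6, with CCAAT and TTTGAA in capitals in either orientation (ATTGG and TTCAAA on the other strand). CCAAT and TTTGAA do not overlap in these windows, and, as above, they were picked with the results known.
Top2a: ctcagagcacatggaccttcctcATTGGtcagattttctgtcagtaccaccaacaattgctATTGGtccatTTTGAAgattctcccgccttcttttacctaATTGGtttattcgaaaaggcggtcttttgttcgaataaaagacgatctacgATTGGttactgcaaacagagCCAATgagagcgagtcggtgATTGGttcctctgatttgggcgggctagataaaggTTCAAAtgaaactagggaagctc
Mki67: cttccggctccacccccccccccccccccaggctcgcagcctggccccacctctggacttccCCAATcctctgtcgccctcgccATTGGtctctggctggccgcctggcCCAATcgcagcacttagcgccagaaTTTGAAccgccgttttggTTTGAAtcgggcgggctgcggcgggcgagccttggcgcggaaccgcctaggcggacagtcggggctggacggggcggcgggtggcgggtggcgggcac

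**Figure D3:**
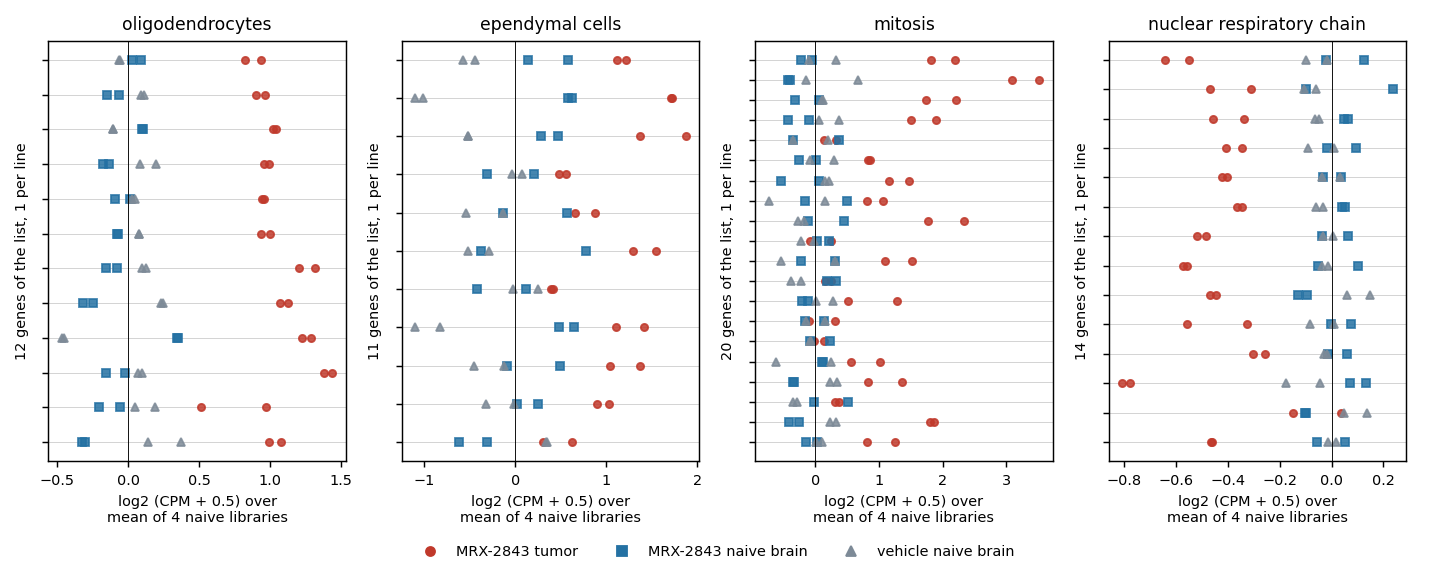
Level of each gene in each library as log2 of (CPM + 0.5) over the mean of the 4 naive libraries (x axis), 1 gene per line, for the oligodendrocyte (12 genes), ependymal (11), mitosis (20) and nuclear respiratory chain (14) lists; the vertical line marks the naive mean. Tumor-labelled circles lie to the right of all naive points for 12, 10 and 14 genes of the first 3 lists and to the left for 13 of the fourth.

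Genes of ependymal cells lay above the naive range in 10 of 11 cases, beside 17.6% of all genes, with a median of 1.28 (1.05 and 1.87 against MRX-2843 and vehicle naive brain). The edgeR test called 0 of them, 5 had an unadjusted p under 0.05 (21.3% of all genes did), and DESeq2 called 4 higher. Their sum was 36.6 to 39 CPM in the tumor-labelled libraries, 17.8 to 20.4 in MRX-2843 naive brain, and 13.3 to 14.4 in vehicle naive brain. In vehicle tumor it was 10.3 to 11.1 CPM. Foxj1, the master regulator of motile cilia, was at 8.96 and 8.35 CPM against 5.58 and 3.97 in MRX-2843 naive and 2.24 and 2.49 in vehicle naive brain (1.28 ± 0.36, adjusted p = 0.088). The naive pairs did not overlap each other for Foxj1, and the tumor-labelled libraries were above both. Against each pair alone it passed the test (0.87, adjusted p = 0.0043, and 1.87, adjusted p = 9.3e-07). The RFX motif, bound by regulators of cilia genes, stood before 1 of the 9 list members with a promoter and 2.1% of all genes.

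Markers of the adult stem cell niche rose in part. Of 12 neuroblast genes 5 were called higher and 0 lower (median 0.57), and of 13 genes of radial glia and neural stem cells 4 were called higher and 0 lower (median 0.47), Thbs4 among them; of all genes 2.05% were called higher. Igfbpl1, an IGF-binding protein of young neurons, was at 7.86 and 8.58 CPM against 0.904 to 1.89 (2.65 ± 0.31, adjusted p = 0.011). Vim, the intermediate filament vimentin, was at 64.6 and 64.2 CPM against 36.1 to 42.2 (0.72 ± 0.10, adjusted p = 0.015) and at a mean of 1547 in vehicle tumor. In neither gene did the groups overlap, which the naming rule required. Nrep, of migrating neurons, was at 54.7 and 55.4 CPM against 32.5 to 40.6 (0.61 ± 0.11, adjusted p = 0.029) and lost its call without either MRX-2843 naive library or vehicle naive library 2 (adjusted p = 0.056 to 0.068). Neuroblast calls fell to 2 without MRX-2843 naive library 1 or 2 and to 3 without vehicle naive library 1 or 2. Astrocyte genes were split, with 5 of 11 above and 2 below the range (17.6% and 17.1% of all genes). The edgeR test called 0 of them (6 at an unadjusted p under 0.05, beside 21.3% of all genes), and DESeq2 called 3 higher and 2 lower. Their most abundant member, the glutamate transporter gene Slc1a2, was at 1818 and 1722 CPM against 1111 to 1473 (0.46 ± 0.15, adjusted p = 0.13).

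Antigen presentation genes lay above the naive range in 12 of 15 cases and below in 0 (17.6% and 17.1% of all genes), with 2 called higher (2.05% of all genes) and a median of 0.73 (0.61 and 1.06 against MRX-2843 and vehicle naive brain). H2-Ab1, a class II chain that presents peptides to CD4 T cells, was at 9.7 and 10.5 CPM, at 2.75 and 3.13 in MRX-2843 naive and at 1.06 and 1.64 in vehicle naive brain (2.23 ± 0.39, adjusted p = 0.027). H2-Eb1, a chain of the other mouse class II molecule, was at 8.6 and 8.7 CPM against 2.32 to 3.2 and 1.13 to 1.21 in the same order (2.14 ± 0.41, adjusted p = 0.035). Both stood above MRX-2843 naive brain, which itself stood above vehicle naive brain. H2-Ab1 lost its call without vehicle naive library 2 (adjusted p = 0.062), and H2-Eb1 without that library, vehicle naive 1 or MRX-2843 naive 2 (adjusted p = 0.06 to 0.067). The list's calls ranged from 0 without vehicle naive library 2 to 4 without MRX-2843 naive library 1. The list's sum was 453 to 464 CPM in the tumor-labelled libraries, 298 to 312 and 207 to 208 in the naive pairs, and 11300 to 11400 in vehicle tumor.

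Of 20 interferon response genes 2 were called higher and 0 lower, with 10 above the range and a median of 0.40, beside 2.05% called higher and 17.6% above the range over all genes. Gbp2, a GTPase that attacks intracellular microbes, was at 8.19 and 6.88 CPM against 2.77 to 3.42 (1.30 ± 0.18, adjusted p = 0.016), and Xaf1 at 28 and 29.8 against 12.9 to 17.8 (0.95 ± 0.14, adjusted p = 0.018). Homeostatic microglia genes lay above the range in 9 of 11 cases (17.6% of all genes; median 0.40), with 1 called higher and 0 lower (2.05% and 2.36% of all genes), and 0 called higher without any 1 of the 4 naive libraries. The list's sum was 401 to 405 CPM against 306 to 310 and 301 to 303 in the naive pairs, and 2220 to 2280 in vehicle tumor.

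Of 14 disease-associated microglia genes 3 were called higher and 1 lower (2.05% and 2.36% of all genes). In range terms 8 lay above and 1 below (17.6% and 17.1% of all genes), with a median of 0.41. Their sum was 2020 and 2270 CPM, against 2590 and 2700 in MRX-2843 naive and 2030 and 2130 in vehicle naive libraries. The higher calls numbered 2 without vehicle naive library 1 and 1 without any other naive library. Cd9, a tetraspanin also found in myelin, was at 56.2 and 57.2 CPM against 29.4 to 33.6 (0.84 ± 0.09, adjusted p = 0.009). Lgals3, galectin-3, was at 2.67 and 3.25 CPM against 0.655 to 1.26 (1.69 ± 0.33, adjusted p = 0.037), a call lost without either MRX-2843 naive library or vehicle naive library 2 (adjusted p = 0.071 to 0.076). Spp1, osteopontin, was lower, at 3.57 and 3.68 CPM against 7.49 to 9.48 (-1.18 ± 0.17, adjusted p = 0.018) and at a mean of 1701 in vehicle tumor. Among lymphocyte genes, Ighm, the IgM heavy chain, was at 30 and 32.3 CPM against 13.4 to 15.7 (1.09 ± 0.11, adjusted p = 0.009), while Cd79a, which partners IgM at the B cell surface, was at 0.105 and 0.101 CPM against 0.574 to 1.12. The Cd79a difference (-3.00 ± 0.64, adjusted p = 0.045) rests on 6 counts in each tumor-labelled library and was lost without any 1 naive library (adjusted p = 0.064 to 0.099). The B cell marker Ms4a1 had too few counts to be tested.

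The drug's targets were not called. Mertk (chromosome 2, 128698956 to 128802894) was at 51.3 and 50.9 CPM, 42.7 and 36.8 in MRX-2843 naive and 41.9 and 43.7 in vehicle naive brain, above all 4 (0.31 ± 0.10, adjusted p = 0.12). Flt3 (chromosome 5, 147330741 to 147400489) was at 7.21 and 8.31 CPM against 10.7 and 13 and against 9.72 and 10.2, below all 4 (-0.49 ± 0.17, adjusted p = 0.15). Axl, a TAM receptor like Mertk, was at 46.6 and 48.3 CPM against 34.3 to 39.2 (0.37 ± 0.09, adjusted p = 0.065), and at a mean of 991 in vehicle tumor. The gaps to the naive range were small: 0.22 log2 units for Mertk, -0.21 for Flt3 and 0.24 for Axl. Against MRX-2843 naive brain alone, Mertk (0.37, adjusted p = 0.0024), Axl (0.32, adjusted p = 0.0065) and Flt3 (-0.61, adjusted p = 0.006) passed the test. Against vehicle naive brain alone Mertk (0.26, adjusted p = 0.03) and Axl (0.42, adjusted p = 0.00064) passed and Flt3 did not (-0.36, adjusted p = 0.11). Tyro3, the TAM receptor of neurons, was at 260 and 252 CPM, above MRX-2843 naive brain (150 and 147) and level with vehicle naive brain (247 and 255). The ligand genes Gas6 and Pros1 did not have both tumor-labelled libraries outside the range (-0.07 and 0.10, adjusted p = 0.81 and 0.82). Of the 7 genes of this axis edgeR called 0 (4 at an unadjusted p under 0.05), and DESeq2 called 1 higher and 1 lower.

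Neither partner gene of the fusion was called. Zfta (chromosome 19, 7417625 to 7425904) was at 54.3 and 56.9 CPM, 33.6 and 32.7 in MRX-2843 naive and 49.6 and 47.6 in vehicle naive brain (0.45 ± 0.19, adjusted p = 0.23), with a mean of 288 in vehicle tumor. Zfta passed the test against MRX-2843 naive brain alone (0.75, adjusted p = 1.4e-07) and with the naive pairs as 2 groups (0.47, adjusted p = 1.1e-05), but not against vehicle naive brain alone (0.20, adjusted p = 0.079). Rela (chromosome 19, 5637483 to 5648130) was at 28.4 and 32 CPM against 23.4 to 28.1 (0.24 ± 0.11, adjusted p = 0.27), with 85.5 in vehicle tumor; whether reads of the fusion were counted under either gene is not known. Ccnd1, cyclin D1, was at 16.6 and 14.5 CPM, between MRX-2843 naive (12.5 and 12.2) and vehicle naive brain (21.6 and 18.5). L1cam, a marker of this tumor in diagnosis, was at 125.7 and 127.1 CPM, overlapping the naive libraries at 126.7 to 151.5 (-0.13 ± 0.10, adjusted p = 0.52). Of 11 genes linked to the fusion 2 were called higher, beside 2.05% of all genes: the receptor Notch1 was at 20.5 and 22.6 CPM against 8.55 to 12.9 (1.03 ± 0.17, adjusted p = 0.023), and Arl4d at 26.6 and 28 against 16.5 to 20.6 (0.58 ± 0.12, adjusted p = 0.043). Notch1 lost its call without MRX-2843 naive library 2 or vehicle naive library 1 (adjusted p = 0.054 to 0.057), and Arl4d without any 1 naive library (adjusted p = 0.051 to 0.087). Exons of Zfta, Ccnd1 and L1cam overlap those of Rtn3, LTO1 and Arhgap4, so their counts may hold reads of these neighbours. Of 15 NF-kB targets edgeR called 0, with 0 at an unadjusted p under 0.05 and 0 by DESeq2; Vcam1, the most abundant, was at 29.7 and 26.4 CPM against 20.4 to 25.8.

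Some nuclear genes of the respiratory chain fell, by small amounts. Of 14 members 6 were called lower and 0 higher, beside 2.36% of all genes, and 13 lay below the naive range, beside 17.1%; the median was -0.43 (-0.46 and -0.41 against MRX-2843 and vehicle naive brain). Their sum was 2160 to 2260 CPM in the tumor-labelled libraries, 2830 to 2880 in MRX-2843 naive and 2790 to 2850 in vehicle naive brain. Cox5a, of the terminal oxidase, was at 32.4 and 33.1 CPM against 50.5 to 62.7 (-0.80 ± 0.11, adjusted p = 0.016). Uqcrc1, of complex III, was at 175 and 173 CPM against 249 to 277 (-0.56 ± 0.09, adjusted p = 0.021), and Ndufa4 at 119 and 127 against 174 to 204 (-0.60 ± 0.10, adjusted p = 0.023). The calls of Uqcrc1 (adjusted p = 0.05) and Ndufa4 (adjusted p = 0.054) were lost without vehicle naive library 2, which left 2 calls in the list; 3 to 5 were left without each of the others. Among the 13 mitochondrially encoded genes edgeR and DESeq2 called 0 (1 at an unadjusted p under 0.05), and mt-Co1 was at 47350 and 45640 CPM against 42150 to 49000.

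Synaptic genes were lower in part. Of 15 genes of synaptic vesicle release 5 were called lower and 0 higher, beside 2.36% and 2.05% of all genes (median -0.47; -0.13 against MRX-2843 and -0.79 against vehicle naive brain). Rab3a, a vesicle GTPase, was at 326 and 328 CPM against 554 to 642 (-0.88 ± 0.10, adjusted p = 0.011), and Cplx1, complexin, at 346 and 359 against 549 to 576 (-0.67 ± 0.09, adjusted p = 0.012). Sv2a, a vesicle glycoprotein, was at 266 and 271 CPM against 365 to 388 (-0.47 ± 0.09, adjusted p = 0.03), a call lost without any 1 naive library (adjusted p = 0.06 to 0.066). The list's calls fell to 2 without MRX-2843 naive library 1 or either vehicle naive library, and to 3 without MRX-2843 naive library 2. Of 14 GABA receptor genes 2 were called lower (2.36% of all genes) and 0 higher (median -0.32), with 3 called lower without MRX-2843 naive library 1 and 1 without any other naive library. The 14 potassium channel genes showed no lean, with 2 called higher and 2 lower (2.05% and 2.36% of all genes) and a median of 0. Of them 4 lay above and 4 below the range (17.6% and 17.1% of all genes). The lower calls were Kcnc2 (-0.77) and Kcnc1 (-0.63), of fast-spiking neurons, and Kcna1 was among the higher. Kcnc2 was lost without either vehicle naive library (adjusted p = 0.051 to 0.062). Kcnc1 was lost without either MRX-2843 naive library or vehicle naive library 1 (adjusted p = 0.051 to 0.064).

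Markers of fibroblasts and vessel walls lay below the range in 6 of 11 cases (17.1% of all genes) and above in 1, with 2 called lower (2.36% of all genes) and a median of -0.40. Dcn, decorin of fibroblasts, was at 4.57 and 4.89 CPM against 8.21 to 12.3 (-1.17 ± 0.21, adjusted p = 0.029), and lost its call without either MRX-2843 naive library or vehicle naive library 2 (adjusted p = 0.057 to 0.059). Col1a1 was below 9.85 to 12.9 CPM in the naive libraries (-0.74 ± 0.16, adjusted p = 0.044), a call lost without any 1 naive library (adjusted p = 0.057 to 0.087) and with library totals in place of scaling (adjusted p = 0.052). Of 10 endothelial genes edgeR called 0 (1 at an unadjusted p under 0.05, DESeq2 0), with a median of -0.01. Among 16 matrix genes 3 were called higher (2.05% of all genes) and 1, Spp1, lower. Col6a1, a collagen of the microfibril network, was at 385 and 398 CPM against 153 to 204 (1.13 ± 0.14, adjusted p = 0.012), close to vehicle tumor's mean of 383. Vcan, versican, was at 29.5 and 33.3 CPM against 15.1 to 21.2 (0.79 ± 0.15, adjusted p = 0.032) and lost its call without MRX-2843 naive library 1 or either vehicle naive library (adjusted p = 0.054 to 0.068).

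Glucocorticoid-responsive genes were called higher in 3 of 10 cases and lower in 0, beside 2.05% and 2.36% of all genes (median 0.22). Sgk1, a kinase gene induced by corticosteroids and also high in oligodendrocytes, was at 190 and 184 CPM against 86.2 to 102 (0.99 ± 0.10, adjusted p = 0.0083). Pdk4, which restrains pyruvate oxidation, was at 14.6 and 14.9 CPM against 6.64 to 7.61 (1.06 ± 0.13, adjusted p = 0.011), and Zbtb16 was the third. Of 12 clock genes measured 2 were called higher, beside 2.05% of all genes, and 0 lower (median 0.16): Per2 was at 69.7 and 71.5 CPM against 42.7 to 52.9 (0.58 ± 0.11, adjusted p = 0.032) and Per3 at 98.3 and 96.5 against 70.4 to 76 (0.41 ± 0.08, adjusted p = 0.038). Per2 lost its call without either MRX-2843 naive library or vehicle naive library 1 (adjusted p = 0.064 to 0.065), and Per3 without any 1 naive library (adjusted p = 0.061 to 0.086). The labels give no time of day.

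Smaller lists held single calls, most of which leaned on the naive libraries. Over all genes tested 2.05% were called higher and 2.36% lower, and these calls are given as genes, not as results about their lists. Ttr, transthyretin of the choroid plexus, was at 7.7 and 5.901 CPM against 2.133 to 3.486 (1.19 ± 0.24, adjusted p = 0.04), the 1 called of 11 choroid plexus genes, whose sum was 14.1 to 19.4 CPM against 35 to 36.6 in MRX-2843 naive and 8.11 to 9.18 in vehicle naive libraries. Rxrg, a retinoid receptor gene, was at 38.39 and 44.83 CPM against 24.35 to 24.9 and 14.72 to 15.76 (1.06 ± 0.23, adjusted p = 0.049), the 1 higher call of 10 retinoic acid genes, among which Cyp26b1 was the 1 lower call. Ttr and Rxrg each lay above both naive pairs, as the naming rule required. Ndrg1, induced by hypoxia and also present in myelinating cells, was at 149.5 and 145.1 CPM against 72.89 to 103 (0.72 ± 0.15, adjusted p = 0.042), while the glycolytic Pgk1 was at 316.1 and 319.4 against 408.7 to 447.4 (-0.43 ± 0.09, adjusted p = 0.04), the 2 calls among 15 hypoxia and glycolysis genes. Phlda1, a MAPK feedback gene, was at 8.438 and 7.537 CPM against 11.83 to 13.89 (-0.72 ± 0.14, adjusted p = 0.037), the 1 call of 11. Ttr (adjusted p = 0.057 to 0.076), Rxrg (0.055 to 0.089), Ndrg1 (0.053 to 0.082), Pgk1 (0.064 to 0.085) and Phlda1 (0.057 to 0.075) each lost the call without any 1 naive library, and Pgk1 also with library totals in place of scaling (adjusted p = 0.053).

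Among 14 glutamate receptor genes the 1 call was Grm3, a metabotropic receptor of astrocytes and neurons, at 43.6 and 36.52 CPM against 19.81 to 28.17 (0.78 ± 0.16, adjusted p = 0.04). Crh, corticotropin-releasing hormone, was the 1 call of 13 neuropeptide genes, at 1.863 and 2.327 CPM against 7.927 and 8.367 in MRX-2843 naive and 5.224 and 5.452 in vehicle naive libraries (-1.69 ± 0.28, adjusted p = 0.025). Lss, of cholesterol synthesis, was at 46.95 and 46.05 CPM against 30.71 to 35.11 (0.50 ± 0.09, adjusted p = 0.03), the 1 call of 16. Asns, asparagine synthetase of the amino acid stress response, was at 41.49 and 41.21 CPM against 57.46 to 71.65 (-0.67 ± 0.12, adjusted p = 0.027), the 1 call of 14 stress genes. The single calls stand beside 2.05% called higher and 2.36% called lower over all genes. In each of these 4 genes the groups did not overlap, as the naming rule required. Grm3 lost its call without either MRX-2843 naive library or vehicle naive library 1 (adjusted p = 0.07 to 0.082), Crh without MRX-2843 naive library 2 (0.056), and Lss (0.064 to 0.071) and Asns (0.054 to 0.061) without MRX-2843 naive library 2 or either vehicle naive library.

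Lists of brain region markers separated the naive pairs, and the tumor-labelled libraries fell between or beside them. Genes of striatal medium spiny neurons summed to 2370 and 2480 CPM in the tumor-labelled, 2620 and 2650 in MRX-2843 naive and 515 and 524 in vehicle naive libraries. All 15 lay above vehicle naive brain (31.3% of all genes), while 8 lay below and 4 above MRX-2843 naive brain (29.9% and 30.3% of all genes). Ppp1r1b, the gene of the dopamine signalling protein DARPP-32, was at 604 and 674 CPM against 632 and 563 and against 159 and 163 (0.75 ± 0.57, adjusted p = 0.52; 0.10 and 1.99 against each pair). Genes of cortical excitatory neurons summed to 1410 and 1440 CPM, against 549 and 550 in MRX-2843 naive and 2760 in both vehicle naive libraries. Of these 12 genes 11 lay above the first pair and below the second (5.41% of all genes). The exception, Rasgrf2, of upper cortical layers, was at 84.3 and 78.2 CPM against 112 to 127 (-0.56 ± 0.10, adjusted p = 0.026) and lost its call without MRX-2843 naive library 2 or either vehicle naive library (adjusted p = 0.05 to 0.06).

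The hypothalamic genes summed to 6.86 and 7.79 CPM in the tumor-labelled, 7.25 and 8.35 in the vehicle naive and 199 and 213 in the MRX-2843 naive libraries. Trh, the gene of thyrotropin-releasing hormone, was at 3.69 and 2.33 CPM against 19.2 and 18.3 in MRX-2843 naive and 4.36 and 2.8 in vehicle naive brain. The striatal and hypothalamic lists thus moved by large amounts against 1 naive pair and little against the other, and edgeR called 0 members of either (0 striatal and 4 hypothalamic at an unadjusted p under 0.05; DESeq2 called 0 striatal and 2 hypothalamic genes, both lower). Thalamic genes summed to 73.1 and 75 CPM, near the 74.1 and 76 of vehicle naive brain and below the 135 and 140 of MRX-2843 naive brain. Ntng1, an axon guidance ligand of thalamic neurons, was lower than all 4 (10.4 and 10.1 against 18.5 to 24.2; -1.06 ± 0.14, adjusted p = 0.014). In the hippocampal list Prox1, a factor of dentate granule cells and of interneurons, was higher (14.8 and 13.7 against 7.2 to 7.87; 0.93 ± 0.12, adjusted p = 0.014). Red cell genes and a sex-linked RNA also followed the naive pairs: Hba-a1, of haemoglobin, was at 16.4 and 18.8 CPM against 26 and 21.1 and against 292 and 311, and Xist, which silences an X chromosome in females, at 795 and 736 against 526 and 531 and against 2.11 and 2.88. The Y-linked genes Ddx3y, Eif2s3y and Kdm5d had 0 counts in both tumor-labelled libraries. Uty, the other Y-linked gene of the list, had counts in at least 1 of them. The sex-linked list, Xist included, summed to 526 and 531 CPM in MRX-2843 naive and to 122 and 124 in vehicle naive libraries. In the vehicle naive pair Xist was thus a small part of that sum, and in the MRX-2843 naive pair it was nearly all of it. The naive pairs differed in sex-linked RNA as RNA of males and of females would. This difference cannot be told apart from their treatment or from the number in the column names. What part of the sampled region, blood or sex entered any gene's difference was not tested.

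**Figure D4:**
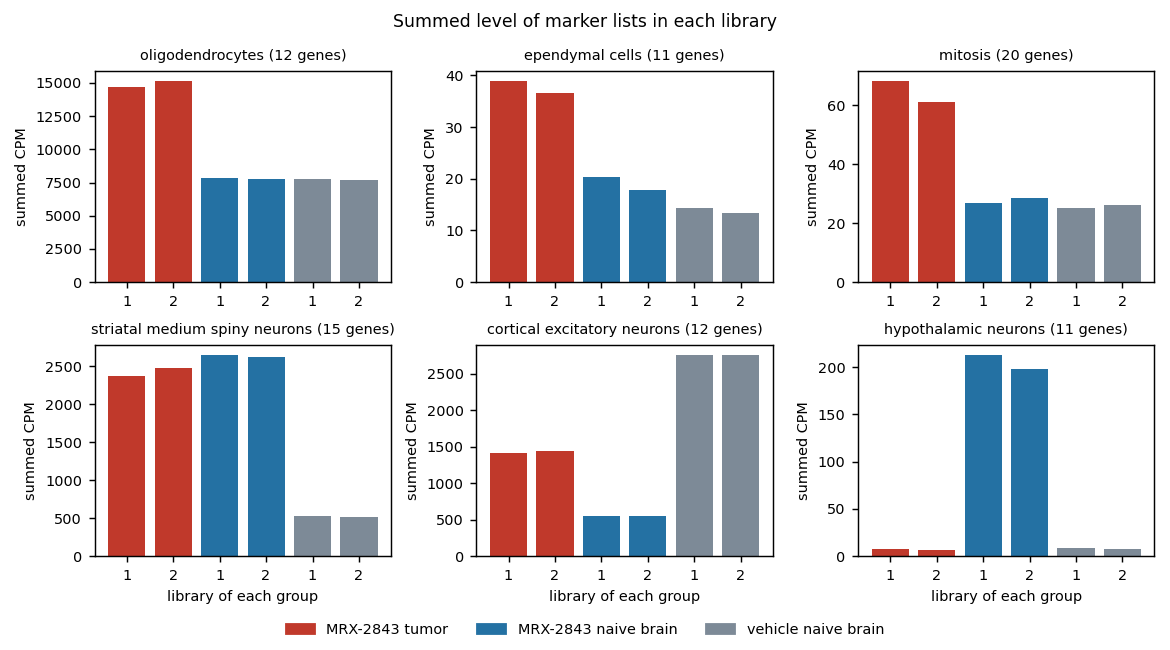
Summed CPM of 6 marker lists in each library (bars from 0; red tumor-labelled, blue MRX-2843 naive, grey vehicle naive; libraries 1 and 2 of each). In the upper row the red bars are the tallest, as with oligodendrocyte genes at 14700 to 15200 against 7700 to 7830; in the lower row the blue and grey bars differ from each other, as with hypothalamic genes at 199 and 213 against 7.25 and 8.35.

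**Figure D5:**
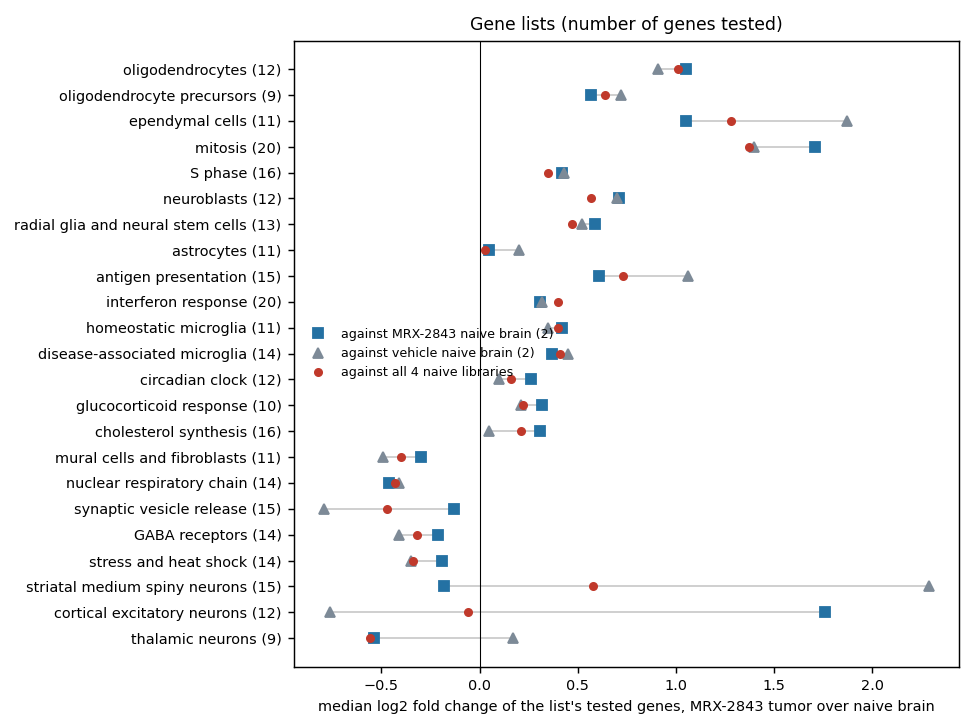
Median log2 fold change of each list's tested genes in the tumor-labelled libraries over all 4 naive libraries (circles), over MRX-2843 naive (squares) and over vehicle naive brain (triangles); the number of genes is in brackets. The 3 symbols lie close together for oligodendrocytes (1.01, 1.05 and 0.91) and the respiratory chain (-0.43, -0.46 and -0.41), and on opposite sides of 0 for striatal (-0.18 and 2.29) and cortical genes (1.76 and -0.76).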

How the data were processed

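Values are whole-number read counts per gene, deposited by the authors as 1 table of all libraries. The submitters' processing notes list mm10 and hg38 as builds and STAR 2.7.7a, featureCounts, Subread and SAMtools as tools; no role is given for any. The strand setting, annotation release and read trimming are not given in the sources used here, so genes overlapping on either strand are uncertain. Coordinates and overlaps are from GENCODE M21 (GRCm38); 94.0% of gene identifiers matched it without version.

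The model was edgeR 4.0.16 (R 4.3.3): library totals scaled by TMM over all 8 libraries, genes kept by filterByExpr on the 6 libraries (minimum count 10), 2 group means (2 tumor-labelled, 4 naive; 4 residual degrees of freedom), quasi-likelihood test, Benjamini-Hochberg adjusted p under 0.05. The common biological coefficient of variation was 36.3%, and 20.1% with 3 groups. Each SE was taken as |log2 fold change| divided by F's square root. The gap is log2 of (CPM + 0.5) in the nearest tumor-labelled over the nearest naive library. Scripts were tested on simulated counts, and tables and plots made with Python 3.11.15, pandas 2.3.3, numpy 2.4.6 and matplotlib 3.10.9.

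The comparison, the 52 gene lists and the tests were chosen with earlier results of these data known. Genes named were the 12 widest gaps on each side among called genes with mean log2 CPM of at least 2 and an ordinary symbol, up to 3 called members with the smallest adjusted p per list (otherwise the most abundant), and the drug target and fusion genes. Others are marked where they appear, and some genes the rule picks are not reported here. Duplicates differed by more than counting noise (chi-square per degree of freedom 8.97 to 18.4). Alternatives were DESeq2 1.42.0, other scalings, filters and groupings, a replicate block, a minimum fold change and leaving out each library. Fits with scaling from the 6 libraries only, and leaving out a tumor-labelled library with the naive pairs as 2 groups, were added after the data were seen. Sums of list members compare libraries within a list, not lists with each other, since counts were not divided by gene length.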

Additional observations from a re-analysis of the deposited data

Results flagged for a closer look

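Signal outside the comparison: 60 genes had no count in any of the 6 libraries and at least 1 CPM in both vehicle tumor libraries, Mc2r (64 and 64.3 CPM), Hmx1 (58.6 and 53.4 CPM) and Fgf4 (36 and 39.7 CPM) among them. No cause was tested.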

How the results depend on the processing

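The number of calls depended on how the naive libraries were treated. DESeq2 called 1086 genes higher and 1531 lower, and a fit of all 8 libraries 3105 and 3137. With the naive libraries as 2 groups 3227 and 3366 were called, against MRX-2843 naive libraries only 3142 and 3251, and against vehicle naive libraries only 2968 and 3528. A minimum log2 fold change of 1 left 143 and 77, and a gap of at least 1 log2 unit left 74 genes above and 25 below. Leaving out 1 library gave 0 to 242 higher and 0 to 238 lower calls, with 4445 to 6597 genes above and 4388 to 5962 below the range. With the naive libraries as 2 groups it gave 2422 and 2706 higher and 2719 and 3018 lower calls without tumor-labelled library 1 or 2. Other scalings, filters and dropping mitochondrially encoded genes kept each count within 1.5 times; with library totals 55.6% of calls were higher, against 46.4%. Replicate numbers did not pair the libraries (deviations correlated at -0.0877, 0.0586 and -0.0401), and a replicate block left 55 higher and 24 lower calls. The cause of these shifts was not tested. The direction turned for 8 genes, none of them called. Against MRX-2843 naive libraries only, Ddc was at -0.176, mt-Co1 at -0.051, Rpsa at -0.161, Pros1 at -0.054 and Ccnd1 at 0.334 on the log2 scale; against vehicle naive libraries only, Egr1 was at -0.221 and Bcl2l1 at -0.068. Leaving out 1 library moved mt-Co1 from -0.002 to 0.071, Rpsa from -0.037 to 0.106, Gas6 from -0.157 to 0.023 and Ccnd1 from -0.177 to 0.109; with the naive libraries as 2 groups, Gas6 was at 0.025 without tumor-labelled library 1 and Ccnd1 at 0.083 without library 2.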

Other observations

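Of 18 immediate early genes, which respond to neuronal activity, edgeR called 0 (2 at an unadjusted p under 0.05, DESeq2 1 higher), and 14 lay above MRX-2843 naive brain while 11 lay below vehicle naive brain (30.3% and 31% of all genes). Their best known member, Egr1, was at 98.06 and 94.76 CPM against 61.36 and 63.53 and against 115.3 and 109.5. Of 15 ribosomal protein genes edgeR and DESeq2 called 0 (1 at an unadjusted p under 0.05), and of 8 interneuron genes edgeR called 0 (3 unadjusted, DESeq2 3 lower, and 3 below the range, beside 17.1% of all genes). Sst, the somatostatin gene of interneurons, was at 182.8 and 214.5 CPM against 237.5 to 313.6 (adjusted p = 0.14 by edgeR). It was called lower by DESeq2 (adjusted p = 0.045), with the naive pairs as 2 groups (9.2e-07), and against the MRX-2843 (2.6e-08) or vehicle naive pair alone (0.0026). Cd4, expressed by T helper cells and some neurons, was at 26.18 and 30.5 CPM against 16.04 and 16.97 and against 3.085 and 2.622 (adjusted p = 0.28), while 7 of the 11 T and NK cell genes, Cd3d and Cd8a among them, had too few counts to be tested.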
